A study of Mus musculus with 8 samples.

Results

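The nuclear-encoded subunits of the oxidative phosphorylation system were followed in mpkCCDc14 cells, an immortalised mouse line from the kidney cortical collecting duct, after exposure to aldosterone. Members were chosen by gene symbol: every probe whose symbol in the array annotation begins with Nduf and a, b, c, s or v, is Sdha to Sdhd, begins with Uqcr or Atp5, is a Cox gene of families 4 to 8 with a letter a, b or c, or is Cyc1 or Cycs. This gave 74 probes for 72 genes among the 16361 probes on the array and the 12746 genes named by a single symbol. They comprised 29 symbols of complex I, 3 of complex II, 6 of complex III, 13 of complex IV, 13 of complex V, cytochrome c itself and 7 assembly factors of complex I (Ndufaf1 to Ndufaf7), which the symbol pattern takes in and which were counted apart. All 72 genes had values at both times and were tested. The pattern leaves out Cox4i1 and Cox4i2, and Sdhd was not analysed here. Ndufs5-ps, annotated as a pseudogene of Ndufs5, was counted with complex I by its symbol. Symbols are those of the array annotation, in which ATP synthase genes keep their older names.

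Treated cells received 1 µM aldosterone, the adrenal mineralocorticoid, for 1 h or for 6 h, and control cells received the ethanol vehicle for the same time. All of them had been grown on collagen-coated filters and held in charcoal-treated, steroid-free serum beforehand. Each time had 4 dual-colour arrays, with cDNA of aldosterone-treated cells in Cy5 and cDNA of vehicle-treated cells in Cy3, so that a log2 ratio above 0 means more signal with aldosterone. The dyes were never exchanged: within either time the effect of the hormone and a dye preference of the gene cannot be told apart, whereas a dye difference equal at both times drops out of the 6 h minus 1 h comparison. The labels do not say that arrays came from separate cultures, so each p-value measures spread from array to array, which may be technical. Only ratios were used here, so the markers that define the collecting duct could not be checked as levels, and neither expression level nor signal over background is known for any member. RNA came from whole layers of cells, in which a change in RNA per cell and a change in the share of cells that carry it cannot be told apart.

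Oxidative phosphorylation transfers electrons from NADH through complex I, and from succinate through complex II, to ubiquinone, then through complex III and cytochrome c to complex IV, which reduces oxygen. Complexes I, III and IV pump protons across the inner mitochondrial membrane, and complex V, the ATP synthase, lets them flow back to make ATP. In the collecting duct this ATP feeds the sodium pump, which drives the sodium reabsorption that aldosterone controls. Complex II is encoded wholly in the nucleus. The other complexes join nuclear subunits to subunits made from mitochondrial DNA, which were not analysed here.

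The arrays themselves differed. Array medians lay within 0.01 of 0, whereas the log2 ratios of all features had an SD of 0.576 on replicate 4 at 1 h, the widest, and of 0.30 on the narrowest array, replicate 3 at 6 h. The known corticosteroid target Sgk1, a kinase that promotes sodium transport, had log2 ratios of 1.65, 1.38, -0.64 and -0.16 on the 1 h arrays and of 2.65, 2.00, 1.53 and 1.46 on the 6 h arrays. Tsc22d3, another such target, had 1.01, 0.88, -0.60 and -0.15 at 1 h and 1.15, 1.15, 1.59 and 1.19 at 6 h. Both genes were therefore below vehicle on replicates 3 and 4 of 1 h. The 1 h counts and medians of the members and of complexes I, IV and V are given with and without these arrays. Other 1 h results are with all 4 arrays unless stated. The immunophilin Fkbp5, the sodium channel subunit Scnn1a and the sodium pump subunit Atp1b1 were above 0 on all 8 arrays, with mean log2 ratios of 0.53, 0.42 and 0.84 at 1 h and of 2.10, 1.47 and 1.35 at 6 h.

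Many nuclear genes of this system carry sites for NRF1, for GABPA and other ETS factors and for YY1 close to their start. RefSeq promoters (build GRCm38.p6, 250 bases before to 50 after the start) were matched for 62 of the 72 members and searched on both strands. The NRF1 core GCGCATG was found in 14 of 62 members (22.6%), against 6.04% of the 9936 named genes on the array with a promoter and 4.04% of all 27025 promoters. The ETS core CCGGAAG was also found in 14 of 62 (22.6%), against 14.2% of the named genes and 9.12% of all promoters. The YY1 core AAGATGG was found in 7 (11.3%, against 6.56% and 6.48%) and the estrogen-related receptor core AAGGTCA in 4 (6.45%, against 3.45% and 4.66%). The steroid receptor hexamer AGAACA was found in 9 (14.5%), against 14.4% of the named genes and 19% of all promoters. NRF1 cores thus stood more often in these promoters than in those of named genes, whereas the steroid hexamer was about as frequent. An NRF1 core on each strand of a palindrome gives a pair of overlapping matches, and in Ndufa3 the hexamer overlaps the YY1 core. These are matches of letters, not sites shown to be bound.

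Promoters of 7 members are given here from 150 bases before to 30 after the start, 5′ to 3′ on the gene's strand, with the motif matches in capitals. They were picked after the values were seen, to show the kinds of promoter found among members above vehicle and, in Ndufaf5, below vehicle. The windows are chr15:102671018-102671197 on the minus strand for Atp5g2, chr3:105959234-105959413 on the minus strand for Atp5pb, chr19:44555413-44555592 on the minus strand for Ndufb8 and chr19:7217587-7217766 on the minus strand for Cox8a. Those of Uqcr11, Ndufa1 and Ndufaf5 are chr10:80406792-80406971 on the minus strand, chrX:37191209-37191388 on the minus strand and chr2:140170496-140170675 on the plus strand.
Atp5g2: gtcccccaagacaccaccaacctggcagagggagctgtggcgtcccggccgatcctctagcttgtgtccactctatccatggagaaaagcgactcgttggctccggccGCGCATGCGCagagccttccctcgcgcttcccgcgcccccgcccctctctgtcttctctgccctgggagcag
Atp5pb: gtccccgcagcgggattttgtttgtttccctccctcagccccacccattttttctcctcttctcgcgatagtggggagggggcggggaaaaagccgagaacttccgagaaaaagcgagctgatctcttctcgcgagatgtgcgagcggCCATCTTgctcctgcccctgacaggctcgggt
Ndufb8: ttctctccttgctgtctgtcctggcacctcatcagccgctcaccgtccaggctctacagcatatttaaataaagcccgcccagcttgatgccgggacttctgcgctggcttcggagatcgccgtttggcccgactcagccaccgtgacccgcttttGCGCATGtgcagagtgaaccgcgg
Cox8a: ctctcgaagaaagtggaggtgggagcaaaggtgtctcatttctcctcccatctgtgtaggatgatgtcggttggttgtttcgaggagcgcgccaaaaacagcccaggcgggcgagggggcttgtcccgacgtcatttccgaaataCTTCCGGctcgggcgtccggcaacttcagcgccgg
Uqcr11: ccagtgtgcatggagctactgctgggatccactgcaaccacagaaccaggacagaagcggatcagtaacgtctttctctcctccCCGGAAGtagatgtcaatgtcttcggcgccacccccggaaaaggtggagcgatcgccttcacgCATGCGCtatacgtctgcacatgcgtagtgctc
Ndufa1: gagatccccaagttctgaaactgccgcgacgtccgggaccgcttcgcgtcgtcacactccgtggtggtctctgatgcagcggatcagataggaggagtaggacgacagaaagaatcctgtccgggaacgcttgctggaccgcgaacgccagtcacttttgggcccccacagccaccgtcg
Ndufaf5: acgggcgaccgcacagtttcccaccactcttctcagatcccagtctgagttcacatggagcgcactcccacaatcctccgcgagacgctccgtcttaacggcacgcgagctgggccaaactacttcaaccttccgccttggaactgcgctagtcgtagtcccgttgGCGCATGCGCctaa
Atp5g2 holds a palindromic NRF1 match before the start, Ndufb8 an NRF1 match just after it, and Uqcr11 an ETS match and an NRF1 match. Cox8a has an ETS match and Atp5pb a YY1 match, each across the start. Ndufa1 has none of the cores in the printed window, and Ndufaf5 carries the same NRF1 palindrome as Atp5g2, after its start.

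The comparison at 1 h asks which subunits differed from vehicle early. Of the 72 members 28 were above vehicle and 6 below at an adjusted p under 0.05 (limma, Benjamini-Hochberg over 15079 features), a share of 38.9% above and 8.33% below. Of all features 19.9% were above and 21% below at this time, so the members' share above exceeded that of the array while their share below was smaller. The median mean log2 ratio was 0.20 over the members, against 0.0025 over all features. A positive mean was found for 56 of 72 members (77.8%), against 50.3% of all features. On every one of the 4 arrays 41 members were above 0 and 7 below, against 28.2% of all features in each direction. Without replicates 3 and 4 of 1 h, 7 members remained above and 2 below, all 9 among the 34 called with every array, while 10.5% of all features were called in either direction. The 9 were Ndufa1, Ndufa6, Cox7a2, Cox8a, Atp5g1, Atp5md and Atp5pb above vehicle and Ndufaf5 and Uqcrb below. On the mean of replicates 1 and 2 alone, 57 of the 72 members were positive (79.2%), against 49.6% of all features, and the member median was 0.16. Replicate 4, the array of widest spread, held the highest 1 h value for 41 of the 72 members.

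**Figure D1:**
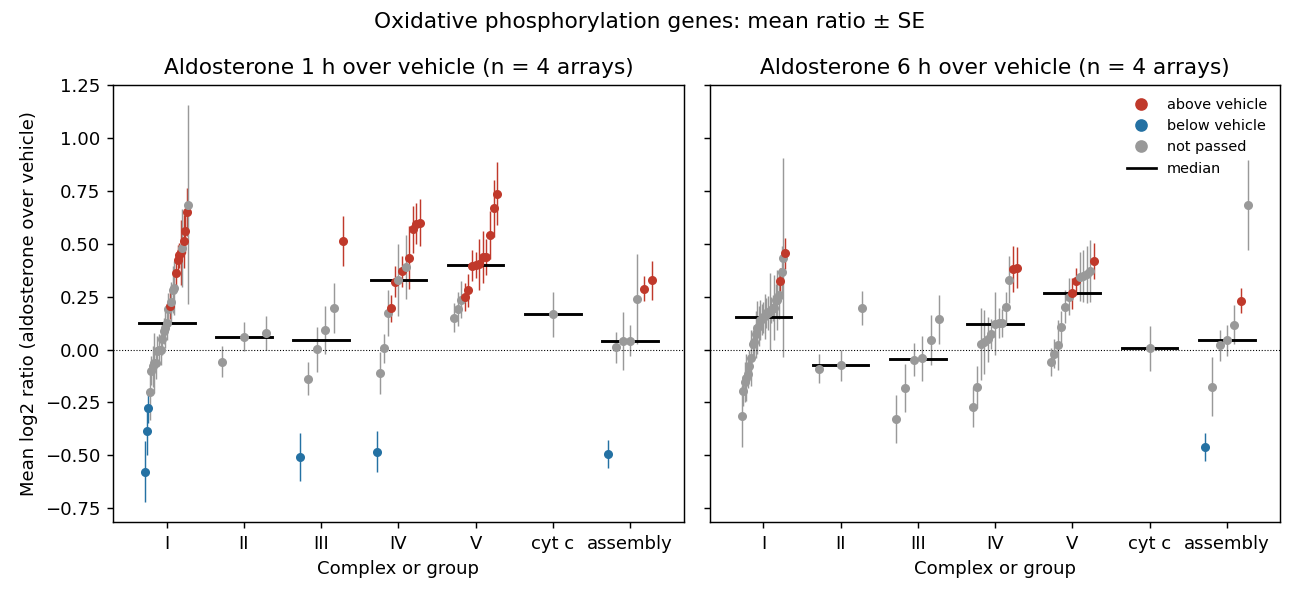
Mean log2 ratio of aldosterone over vehicle for each of the 72 members by complex, at 1 h (left) and 6 h (right), with limma's standard error (n = 4 arrays); black lines are medians of the complex. Red and blue points passed above and below vehicle; complex V has the highest median at both times, 0.40 at 1 h and 0.26 at 6 h, and complexes II and III lie near 0.

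Complex V had the highest median of the complexes at 1 h with all arrays, though without replicate 1 complex IV stood at 0.44 and complex V at 0.42. All 13 of its members were above 0 on all 4 arrays. Above vehicle 10 passed (76.9%, against 19.9% of all features), none passed below, and the median of complex V was 0.40. Without replicates 3 and 4 of 1 h the complex V median was 0.25 and 3 members passed, where 10.5% of all features passed in either direction. Its catalytic head is built from alpha, beta and gamma subunits. The alpha subunit gene Atp5a1 had log2 ratios of 0.31, 0.19, 0.62 and 0.63, a mean of 0.44 ± 0.08 (SE, n = 4, adjusted p = 0.00439). The beta subunit gene Atp5b had 0.40, 0.21, 0.16 and 0.98, a mean of 0.44 ± 0.12 (adjusted p = 0.0201). Replicate 4 alone gave Atp5b its highest value, but the gene passed without it. Atp5c1, for the gamma subunit that turns inside the head, had 0.07, 0.25, 0.05 and 0.23 and did not pass (adjusted p = 0.106).

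The rotor ring of complex V is made of copies of subunit c, a single protein encoded by several genes. Atp5g1 had 0.53, 0.42, 0.54 and 1.46 at 1 h, a mean of 0.74 ± 0.15 (adjusted p = 0.00495) and the highest mean of any member. Atp5g2 had 0.42, 0.20, 0.51 and 1.03, a mean of 0.54 ± 0.11 (adjusted p = 0.0061). Both passed whichever array was left out. The peripheral stalk holds the head still. For its subunit b, Atp5pb had 0.38, 0.30, 0.42 and 0.50, the smallest 1 h p among complex V members (mean 0.40 ± 0.06, adjusted p = 0.00212). For subunit d, Atp5h had 0.31, 0.27, 0.36 and 0.64 (mean 0.40 ± 0.07, adjusted p = 0.00386). The stalk gene Atp5j passed at 0.28 but lost its call without replicate 2, 3 or 4, and Atp5o, for the oligomycin sensitivity protein, had 0.19 and did not pass (adjusted p = 0.0762).

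The small membrane subunits of complex V help to hold its dimers together. Atp5md had 0.43, 0.47, 0.44 and 1.33 (mean 0.67 ± 0.14, adjusted p = 0.00536), which was even on replicates 1 to 3 and higher on replicate 4. Atp5l, for subunit g, had 0.26, 0.16, 0.26 and 0.93 (mean 0.40 ± 0.12, adjusted p = 0.0241) and did not pass without replicate 4, at an adjusted p of 0.0529. Atp5j2, for subunit f, had 0.32, 0.16, 0.30 and 0.21 (mean 0.25 ± 0.07, adjusted p = 0.0162), without an outlying array, though the call was lost without replicate 1 or 3. Atp5k, for subunit e, had 0.24 and did not pass (adjusted p = 0.0564). Subunits of complex V outside the rule for named genes, and in the other complexes Cox5b, Ndufa8, Ndufa13, Ndufv2, Cyc1, Uqcrq, Ndufaf1 and Ndufaf3, were added after their values were seen.

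In complex IV, 7 of 13 members were above vehicle at 1 h (53.8%) and 1 was below (7.69%), against 19.9% and 21% of all features. The median was 0.33. Without replicate 4 that median was 0.15, with 5 members above and 2 below while 28.7% of all features passed in either direction. Without replicates 3 and 4 the complex IV median was 0.18, with 2 above and none below, where 10.5% of all features passed. Several of its subunits exist as a form made in most tissues and a form of heart and skeletal muscle. The widespread form Cox8a had 0.50, 0.43, 0.50 and 0.95 (mean 0.60 ± 0.10, adjusted p = 0.00253). Its muscle form Cox8b had -0.25, -0.26, -0.25 and 0.32 (mean -0.11 ± 0.10, adjusted p = 0.39), below vehicle on 3 arrays and above on replicate 4. Without replicate 4 it passed below vehicle, at -0.25 (adjusted p = 0.0175 for Cox8b at 1 h), and it passed below with array weights too (-0.22, adjusted p = 0.0215). The same order held for the other pairs. Cox7a2, the widespread form, had 0.35, 0.44, 0.50 and 1.11 (mean 0.60 ± 0.11, adjusted p = 0.00391), and the muscle form Cox7a1 had -0.02, -0.06, 0.11 and -0.01 (adjusted p = 0.96). Cox6a1 had 0.40, 0.32, 0.55 and 1.00 (mean 0.57 ± 0.11, adjusted p = 0.00439), and the muscle form Cox6a2 had 0.19, 0.09, 0.0031 and 0.41 (adjusted p = 0.22). In each of the 3 pairs the widespread form passed above vehicle, and with all arrays weighted equally the muscle form did not pass. The difference within pairs was not tested, and whether the muscle forms are expressed in these cells is not known from ratios.

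Other subunits of complex IV passed as well. Cox5a, which faces the matrix, had 0.16, 0.41, 0.41 and 0.50 (mean 0.37 ± 0.07, adjusted p = 0.00476), and Cox5b passed at 0.32. Cox6b1, which faces the intermembrane space, had 0.16, 0.21, 0.26 and 1.11 (mean 0.44 ± 0.15, adjusted p = 0.0401) and did not pass without replicate 4 or replicate 3. Cox7b had 0.08, 0.17, 0.18 and 0.35 (mean 0.20 ± 0.06, adjusted p = 0.037) and did not pass without replicate 2, 3 or 4. Cox7a2l was the only complex IV symbol that passed below vehicle. It encodes SCAF1, which joins complexes III and IV into supercomplexes, and had -0.36, -0.23, -0.52 and -0.82 (mean -0.48 ± 0.10, adjusted p = 0.0049), below 0 on every array. It passed whichever array was left out.

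Complex I was more divided than complex IV or V, with 8 of 29 members above (27.6%), 3 below (10.3%) and a median of 0.12. Of all features 19.9% were above and 21% below. Without replicates 3 and 4 the median was 0.10, with 2 members above and none below, where 10.5% of all features passed in either direction. Of the 5 measured core subunits, which carry the redox chemistry, only the iron-sulphur subunit Ndufv2 passed (0.21, 0.24, 0.28 and 0.10, mean 0.21 ± 0.06, adjusted p = 0.0256), and it did not pass without replicate 1, 2 or 3. Their median was 0.05, against 0.21 over the 24 accessory subunits, of which 7 passed above (29.2%) and 3 below (12.5%). On the 1 h arrays the core medians were -0.07, 0.16, 0.08 and -0.02. The accessory medians were 0.10, 0.185, 0.12 and 0.39, farthest from the core on replicate 4 and close to it on replicates 2 and 3. Ndufa1, a small accessory subunit of the membrane arm, had 0.40, 0.50, 0.36 and 0.52 (mean 0.44 ± 0.06, adjusted p = 0.00134). Ndufb8, an accessory subunit often probed as a sign of assembled complex I, had 0.42, 0.24, 0.45 and 0.58 (mean 0.42 ± 0.07, adjusted p = 0.00283). Both genes were close to even over the arrays. Ndufc1 had 0.39, 0.49, 0.67 and 1.05 (mean 0.65 ± 0.11, adjusted p = 0.00305). Ndufa7 had 0.32, 0.31, 0.66 and 0.96 (mean 0.56 ± 0.11, adjusted p = 0.0042), higher on replicates 3 and 4. Ndufa6, which binds the mitochondrial acyl carrier protein, had 0.37, 0.37, 0.21 and 1.10 (mean 0.51 ± 0.13, adjusted p = 0.0113), with replicate 4 far above the others. Ndufa8 and Ndufa13 passed too, at 0.36 and 0.46, the second of these not without replicate 1, 2 or 4.

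The complex I symbols below vehicle at 1 h were Ndufa11, Ndufb5 and Ndufs5-ps. Ndufa11, an accessory subunit of the membrane arm, had -0.48, -0.06, -0.24 and -0.77 (mean -0.39 ± 0.11, adjusted p = 0.0208). Ndufb5, also of the membrane arm, had -0.37, -0.09, -0.24 and -0.41 (mean -0.28 ± 0.07, adjusted p = 0.0131). Ndufs5-ps had -0.31, -0.36, -0.62 and -1.02 (mean -0.58 ± 0.15, adjusted p = 0.0125). All were negative on each array, and each lost its call without some single array: Ndufa11 without replicate 1 or 4, Ndufb5 without replicate 1 and Ndufs5-ps without replicate 4. Whether the Ndufs5-ps probe also reads Ndufs5 itself was not tested. Ndufb10 is named after its values were seen, for its spread: it had -0.19, 2.61, 0.19 and 0.13 at 1 h and -0.74, 1.39, 1.32 and -0.23 at 6 h, with no call at either time.

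Complexes II and III showed no common direction. None of the 3 complex II members passed at 1 h. The flavoprotein Sdha had 0.10, 0.02, 0.15 and -0.03, the iron-sulphur subunit Sdhb had 0.25, -0.01, 0.17 and -0.10, and the membrane anchor Sdhc had -0.18, 0.18, -0.11 and -0.12. In complex III 1 of 6 members passed in each direction (16.7%), against 19.9% above and 21% below for all features. Uqcr11, a small accessory subunit, had 0.23, 0.40, 0.45 and 0.97 (mean 0.51 ± 0.12, adjusted p = 0.0085). Uqcrb, which lies near a ubiquinone site, had -0.86, -0.44, -0.25 and -0.48 (mean -0.51 ± 0.11, adjusted p = 0.00749). These subunits of the same complex were thus on opposite sides of vehicle on every array of 1 h. On replicate 1 of 6 h both were below vehicle, at -0.05 for Uqcr11 and -0.29 for Uqcrb. The Rieske iron-sulphur protein Uqcrfs1 had 0.24, 0.15, 0.14 and -0.16, and cytochrome c1 (Cyc1) had a mean of -0.14. Neither passed. Uqcrq was read by a pair of probes that disagreed, with 0.44, 0.28, 0.29 and 0.0023 on one and 0.03, -0.48, 0.04 and -0.59 on the other, so that its mean of 0.0015 describes neither. Cytochrome c (Cycs) had 0.11, 0.03, -0.02 and 0.55 and did not pass (adjusted p = 0.229).

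**Figure D2:**
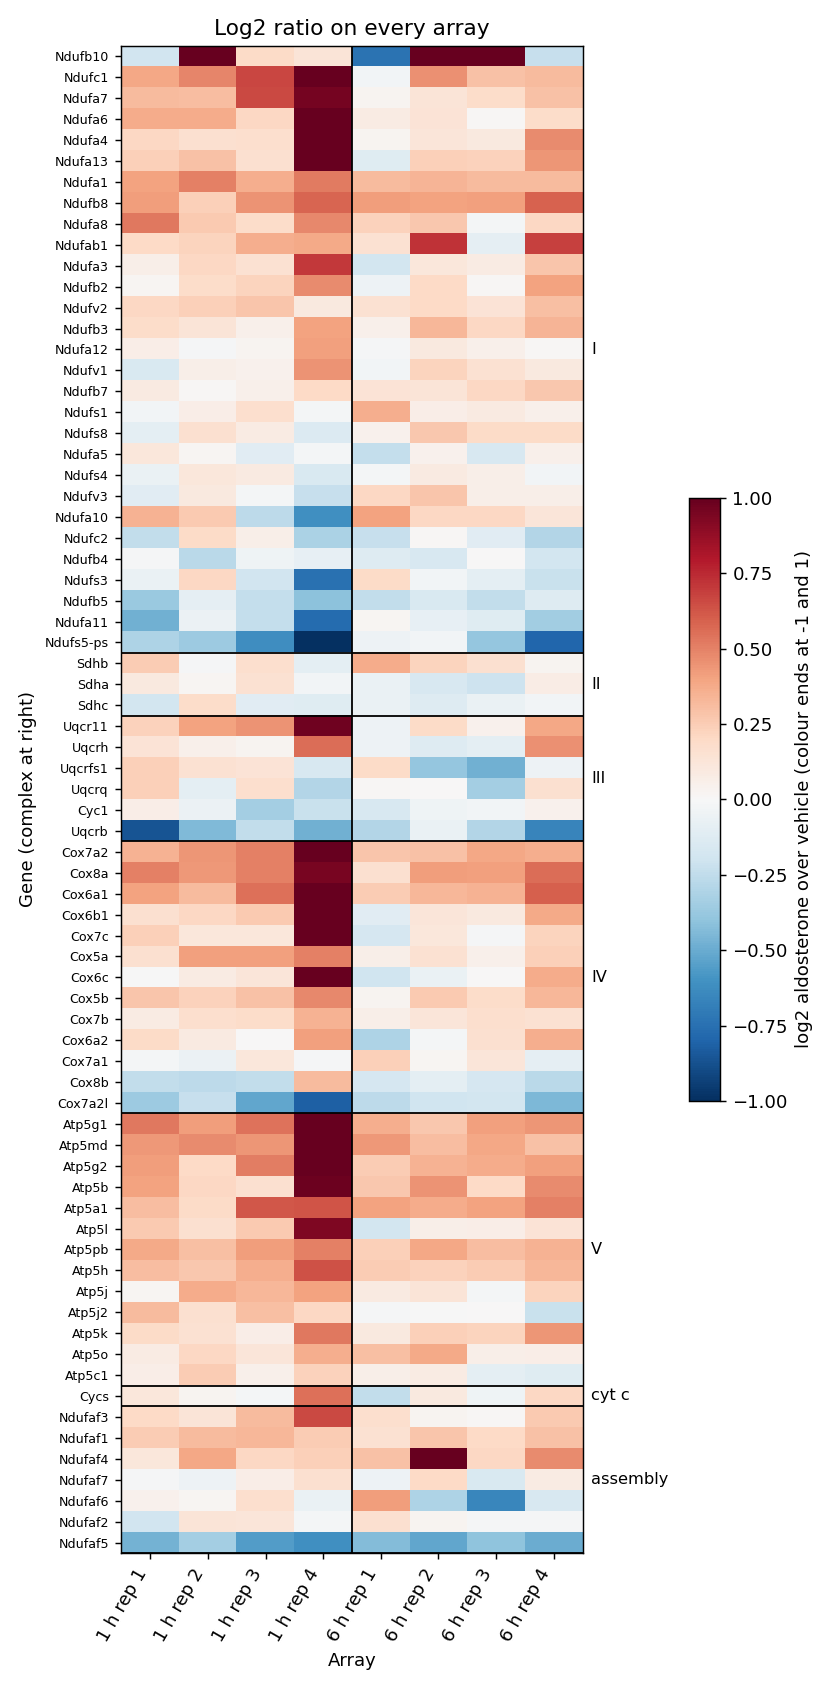
Log2 ratio of aldosterone over vehicle for each of the 72 members (down the page, by complex, sorted by the 1 h mean) on each of the 8 arrays (across, 1 h then 6 h); red is above vehicle, blue below, and colours end at -1 and 1. Complex V is red across all 4 arrays of 1 h, replicate 4 of 1 h holds the deepest colours, and Ndufaf5 is blue on all 8 arrays.

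Among the 7 assembly factors of complex I that the symbols took in, Ndufaf1 and Ndufaf3 passed above vehicle at 1 h and Ndufaf5 below. Ndufaf5, which hydroxylates the core subunit Ndufs7, had -0.47, -0.34, -0.56 and -0.61 at 1 h (mean -0.50 ± 0.07, adjusted p = 0.00134). At 6 h it had -0.43, -0.52, -0.40 and -0.50 (mean -0.46 ± 0.07, adjusted p = 0.00313). It was the only member that passed below vehicle at both times, and it did so whichever array was left out. It was 1 of 5 members below 0 on all 8 arrays, with Cox7a2l, Uqcrb, Ndufb5 and Ndufs5-ps. The share of all features below 0 on all 8 arrays is not given here, so this count has no comparison. Ndufaf1 had means of 0.29 at 1 h and 0.23 at 6 h and passed at both times, but its 6 h call was lost whichever array was left out. Ndufaf4, named after its values were seen, had 0.29, 1.77, 0.21 and 0.47 at 6 h, with replicate 2 far above the others and no call (adjusted p = 0.0524).

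At 6 h fewer members passed. Above vehicle were 8 of 72 (11.1%) and below was 1 (1.39%), against 7.11% and 10.6% of all features, and the median was 0.12. Above 0 on all 4 arrays were 31 members and below 0 were 7, against 22.4% and 23.5% of all features. All 9 had passed in the same direction at 1 h, whereas 20 members above and 5 below at 1 h did not pass at 6 h. The comparisons share no array, though they share the estimate of error and the dye order. Calls fell over all features too, from 19.9% above and 21% below at 1 h. The share of all features called at both times is not given here, so the repeated and lost calls have no comparison. The count at 6 h depended on the processing: with each array divided by its own spread it was 22 above and 5 below, where 33.3% of all features passed. With quantile normalization 26 members passed and with array weights 22, beside 32.2% and 26.8% of all features. Leaving out replicate 4 of 6 h gave 3 above and 1 below, with 7.28% of all features, and leaving out replicate 2 gave 4 above and 1 below, with 8.24%.

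In complex V, 3 of 13 members passed above vehicle at 6 h (23.1%, against 7.11% of all features), with a median of 0.26. Of the 13, 9 were above 0 on all 4 arrays, against 22.4% of all features. Atp5a1 had 0.40, 0.37, 0.40 and 0.50 (mean 0.42 ± 0.08, adjusted p = 0.0112), and did not pass without replicate 4 (adjusted p = 0.0502). Atp5pb had 0.24, 0.39, 0.31 and 0.35 (mean 0.32 ± 0.06, adjusted p = 0.00948) and passed whichever array was left out. Atp5h had 0.25, 0.23, 0.25 and 0.33 (mean 0.26 ± 0.07, adjusted p = 0.035), a call lost whichever array was left out. The ring genes Atp5g1 and Atp5g2 had means of 0.37 (adjusted p = 0.108) and 0.34 (adjusted p = 0.0632), above 0 on every array but not past the test. Atp5b and Atp5md likewise had 0.35 each, with adjusted p of 0.079 and 0.0977. With each array divided by its own spread, 9 of the 13 passed above and none below, where 33.3% of all features passed in either direction.

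In complex IV, 2 of 13 members passed above vehicle at 6 h (15.4%, against 7.11% of all features) and the median was 0.12. Cox8a had 0.16, 0.42, 0.41 and 0.56 (mean 0.39 ± 0.10, adjusted p = 0.0262) and Cox6a1 had 0.25, 0.33, 0.35 and 0.60 (mean 0.38 ± 0.11, adjusted p = 0.0391). Neither passed without replicate 2, 3 or 4, nor Cox6a1 without replicate 1. Cox7a2 had 0.28, 0.29, 0.39 and 0.36 (mean 0.33 ± 0.11, adjusted p = 0.0683). It was even over the 6 h arrays and did not pass with an error pooled over both times. The muscle forms Cox8b, Cox7a1 and Cox6a2 had means of -0.18, 0.07 and 0.05, again with no call. Cox7a2l remained negative on all 4 arrays at -0.26, -0.20, -0.18 and -0.45 and did not pass (mean -0.27 ± 0.10, adjusted p = 0.0762).

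In complex I, Ndufa1 and Ndufb8 were the 2 of 29 members that passed at 6 h, and the median was 0.15. Both passed above vehicle, a share of 6.90%, close to the 7.11% of all features. Ndufa1 had 0.32, 0.34, 0.32 and 0.32 (mean 0.32 ± 0.06, adjusted p = 0.00768). Ndufb8 had 0.42, 0.40, 0.41 and 0.59 (mean 0.46 ± 0.07, adjusted p = 0.00457), the smallest 6 h p in complex I. Both passed whichever array was left out, and Ndufb8 was as high at 6 h as at 1 h within its error. The core subunits had a median of 0.14, with none past the test, and the accessory subunits one of 0.15. Complexes II and III had no call at 6 h, with medians of -0.07 and -0.04. With each array divided by its own spread, and with quantile normalization, Sdhb passed above vehicle and Uqcrb below. The probes of Uqcrq disagreed at 6 h too. The probe that was higher at 1 h had 0.40, 0.39, 0.36 and 0.38, and the other had -0.37, -0.39, -1.04 and -0.06. Sdhb had 0.37, 0.22, 0.16 and 0.03, Sdha -0.07, -0.16, -0.20 and 0.07, and Sdhc -0.07, -0.13, -0.07 and -0.03. Uqcrb had -0.29, -0.07, -0.29 and -0.66 (mean -0.33 ± 0.11, adjusted p = 0.0716), and Uqcrfs1 had 0.19, -0.39, -0.48 and -0.05 (mean -0.18 ± 0.11, adjusted p = 0.278). Cycs had a mean of 0.005.

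**Figure D3:**
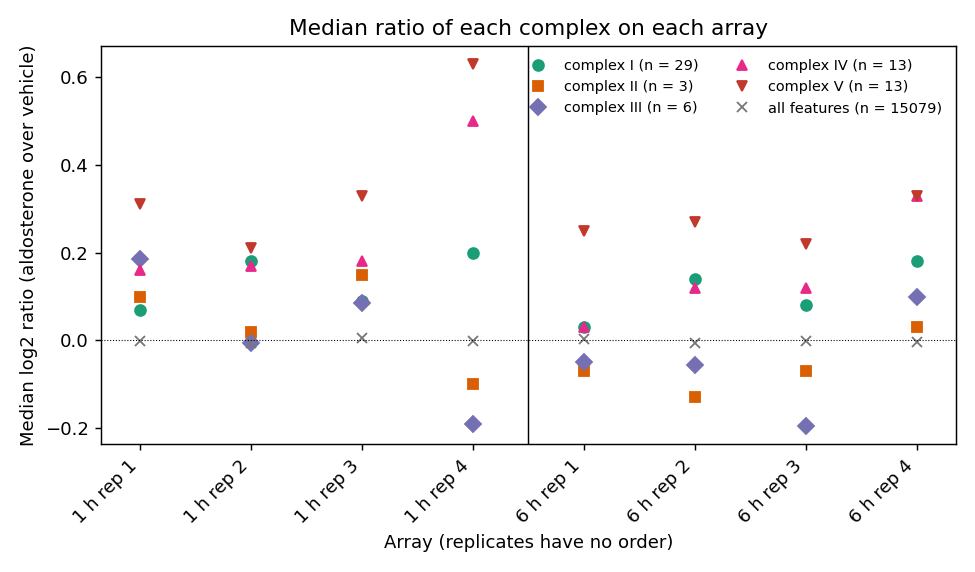
Median log2 ratio of aldosterone over vehicle of each complex on each of the 8 arrays, with the median of all 15079 features as crosses; replicates have no order. Complex V lies above 0.20 on every array, from 0.21 to 0.63 at 1 h and from 0.22 to 0.33 at 6 h, while complexes II and III fall on both sides of 0.

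The order of the complexes was also read array by array. The median of complex V was 0.31, 0.21, 0.33 and 0.63 on the 1 h arrays and 0.25, 0.27, 0.22 and 0.33 on the 6 h arrays, above that of all features on each. Complex IV had 0.16, 0.17, 0.18 and 0.50 at 1 h, where replicate 4 stood apart, and 0.03, 0.12, 0.12 and 0.33 at 6 h. Complex I had 0.07, 0.18, 0.09 and 0.20 at 1 h and 0.03, 0.14, 0.08 and 0.18 at 6 h. Complex II and complex III had medians on both sides of 0 at each time. With Ndufa4 counted in complex I by its symbol, complex V had the highest or joint highest median on all 8 arrays. In units of each array's own median absolute deviation, the complex V median was 1.04, 0.69, 1.04 and 1.13 at 1 h and 1.03, 1.04, 0.99 and 0.91 at 6 h. On that scale the high value of replicate 4 at 1 h was close to the values of replicates 1 and 3. Counting Ndufa4, now known as a subunit of complex IV, with that complex changed its 1 h median to 0.35. Complex IV then had medians of 0.725 on replicate 4 of 1 h and 0.345 on replicate 4 of 6 h. Both were above those of complex V, 0.63 and 0.33. Leaving Ndufs5-ps out of complex I gave a 1 h median of 0.16 there.

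The comparison of 6 h minus 1 h asks whether the ratio itself changed with the length of exposure. No member passed in either direction (limma), and 0.0398% of all features did. At an unadjusted p under 0.05 there were 6 of 72 members (8.33%), against 16.1% of all features. The difference was negative for 48 members, with a median of -0.08 against -0.02 over all features. It was positive for 24 (33.3%), against 46.6% of all features. It was negative for 11 of 13 in complex IV and 11 of 13 in complex V, with medians of -0.18 and -0.17. In complex I it was negative for 15 of 29, with a median of -0.01. Positive differences made up 15.4% in complex IV, 15.4% in complex V and 48.3% in complex I, the last close to the share of all features. With each array divided by its own spread these medians were -0.06 in complex IV and -0.03 in complex V. The difference was then negative for 11 of 13 in complex IV, 8 of 13 in complex V and 45 of the 72 members.

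**Figure D4:**
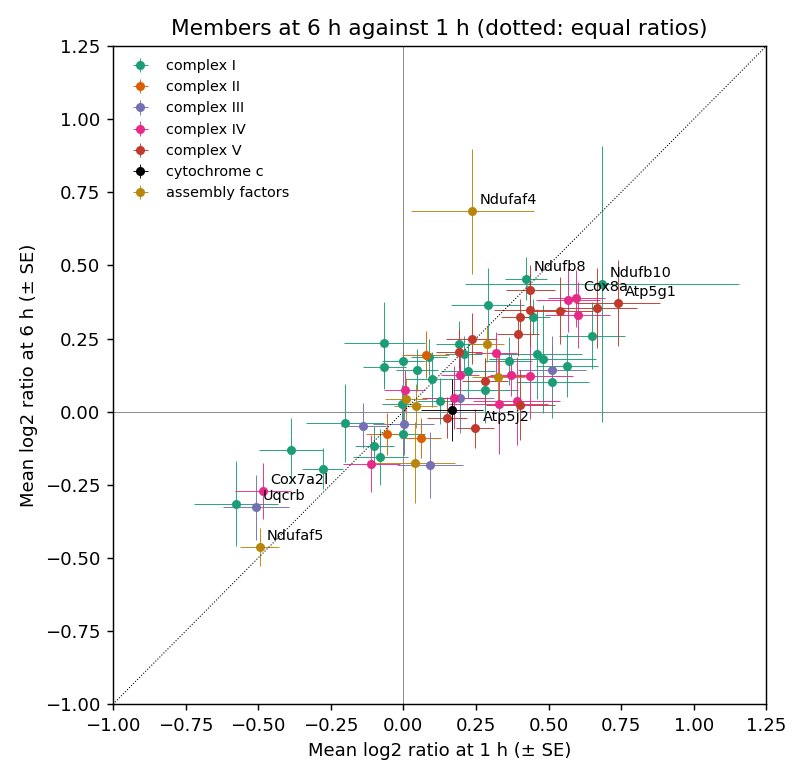
Mean log2 ratio at 6 h (vertical) against 1 h (horizontal) for the 72 members, coloured by complex, with limma's standard errors (n = 4 arrays at each time); the dotted line marks equal ratios. Most members lie below the line on the right-hand side, and Ndufaf5, Cox7a2l and Uqcrb lie at lower left.

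The smallest p for the difference belonged to Atp5j2, which had -0.01, -0.0054, 0.0056 and -0.22 at 6 h, all lower than its 0.16 to 0.32 at 1 h (difference -0.30 ± 0.09, adjusted p = 0.211). Ndufa7 had 0.03, 0.13, 0.18 and 0.29 at 6 h, also below each of its 1 h values (difference -0.41 ± 0.15, adjusted p = 0.256). Ndufa6 had 0.08, 0.14, 0.01 and 0.18 at 6 h, with no overlap (difference -0.41 ± 0.18, adjusted p = 0.303). Arrays of the times did not overlap for 5 members, those 3 with Ndufa1 and Atp5l, and all of them were lower at 6 h. Of all features 4.75% did not overlap in that direction and 5.05% in the other, in which no member stood. Ndufc1 and Cox5a overlapped between the times (differences of -0.39 ± 0.16 and -0.24 ± 0.10, adjusted p = 0.287 and 0.297). Across the 72 members the means of the times had a Pearson r of 0.78 and a Spearman rho of 0.74, against 0.68 and 0.71 over all 15079 features. These describe genes read on the same 8 arrays with the same dyes, not independent points.

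Other genes of mitochondrial respiration were read from lists drawn up for this system. Of 50 assembly factors 30 were measured, among them the 7 above. At 1 h the other 23 had 3 above (13.04%) and 2 below (8.70%), against 19.9% and 21% of all features. At 6 h they had 1 above (4.35%) and 3 below (13.04%), against 7.11% and 10.6% of all features. Their medians were 0.03 at 1 h and 0.00 at 6 h. Lyrm7, which helps to insert the Rieske protein into complex III, had -0.85, -0.68, -0.84 and -1.19 at 1 h (mean -0.89 ± 0.12, adjusted p = 0.00134) and -0.39, -0.36, -0.58 and -1.04 at 6 h (mean -0.59 ± 0.12, adjusted p = 0.011). Its mean ratio at 1 h was lower than that of any member. In the other direction, Uqcc2, also an assembly factor of complex III, was above 0 on every array. It had means of 0.665 ± 0.13 at 1 h (limma adjusted p = 0.00415) and 0.43 ± 0.13 at 6 h (limma adjusted p = 0.0423). The complex IV subunits outside the symbol rule had no call: Cox4i1 averaged -0.03 at 1 h and 0.16 at 6 h, and Cox4i2, the form linked to low oxygen, 0.40 and 0.17.

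A list of 22 genes covered the tricarboxylic acid cycle and pyruvate dehydrogenase, which supply NADH and succinate. It also held the Pdk kinases, which inhibit pyruvate dehydrogenase. Of the 22 genes 19 were measured, Pdk2, Pdk3 and Pdk4 among them. Pdk2 was one of those above vehicle at 1 h (0.29, limma adjusted p = 0.0282). At 1 h 6 were above (31.6%) and 4 below (21.1%), against 19.9% and 21% of all features. At 6 h 2 were above (10.5%) and none below, against 7.11% and 10.6%. The medians were 0.02 at both times. The isocitrate dehydrogenase subunit Idh3b passed at both times, at 0.48 ± 0.10 at 1 h (adjusted p = 0.00539) and 0.34 ± 0.10 at 6 h (adjusted p = 0.0413), a 6 h call lost whichever array was left out. Dld, the dihydrolipoyl dehydrogenase, was below vehicle at 1 h at -0.36 ± 0.07 (adjusted p = 0.0058), with -0.09 at 6 h. The medians of this list, enzymes and kinases together, stood near those of all features, whereas those of complex V were 0.40 and 0.26. Complex II, at 0.06 and -0.075, and complex III, at 0.05 and -0.04, stood near them as well. Complex I had 0.125 and 0.15, and complex IV 0.33 and 0.12. The differences between the lists were not tested.

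Of 22 regulators of mitochondrial genes 19 were measured. At 1 h 7 were above (36.8%) and 1 below (5.26%), against 19.9% and 21% of all features. At 6 h 5 were above (26.3%) and 1 below (5.26%), against 7.11% and 10.6%. The medians were 0.15 and 0.10. The gene below at 6 h was Ppara, with -0.52, -1.29, -0.93 and -2.71 (mean -1.36 ± 0.28, limma adjusted p = 0.0116). Its 1 h mean of -0.725 did not pass (limma adjusted p = 0.0603). The gene below at 1 h was Nfe2l2, at -0.23 (limma adjusted p = 0.0236), with 0.03 at 6 h. The coactivator Ppargc1a had means of -0.045 and 0.10 with no call. Ppara, Nfe2l2 and Ppargc1a are named after their values were seen. Tfam, which packs and transcribes mitochondrial DNA, had 0.57, 0.50, 0.30 and 0.46 at 1 h (mean 0.46 ± 0.10, adjusted p = 0.00626) and 0.36, 0.65, 0.46 and 0.96 at 6 h (mean 0.61 ± 0.10, adjusted p = 0.00478). The mitochondrial deacetylase Sirt3 had 0.29, 0.41, 0.31 and 0.19 at 1 h (mean 0.30 ± 0.06, adjusted p = 0.00614) and 0.41, 0.39, 0.32 and 0.48 at 6 h (mean 0.40 ± 0.06, adjusted p = 0.00457). Both were above vehicle on all 8 arrays, those on which Sgk1 was below vehicle included. Without replicates 3 and 4 of 1 h, limma's adjusted p was 0.0532 for Tfam at 1 h, 0.0753 for Idh3b at 1 h and 0.0966 for Dld at 1 h, so these 3 calls were lost, while those of Sirt3 and Lyrm7 were kept. Of the factors whose cores were searched for in the promoters, which are named after their values were seen, Nrf1 had means of 0.19 at 1 h and 0.19 at 6 h and did not pass. Gabpa had -0.04 and -0.15 with no call, Gabpb1, its partner, passed at 0.47 at 1 h and 0.36 at 6 h, and Yy1 passed at 0.28 and 0.32. Esrra, the estrogen-related receptor alpha, passed at 0.34 at 1 h (adjusted p = 0.00889) and had 0.24 at 6 h (adjusted p = 0.0594). Of members with a promoter, 8 of the 27 above vehicle at 1 h held the NRF1 core (29.6%), against 6 of the other 35 (17.1%), and the ETS core gave the same counts. The YY1 core was in 4 of the 27 (14.8%) and 3 of the 35 (8.57%). The order was the other way for the estrogen-related receptor core, in 1 of the 27 (3.7%) and 3 of the 35 (8.57%), and for the steroid receptor hexamer, in 2 of the 27 (7.41%) and 7 of the 35 (20%). Nothing about the factors follows from these matches.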

How the data were processed

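Per the labels, aldosterone cDNA carried Cy5, vehicle cDNA carried Cy3 and a GenePix scanner read the slides. The authors normalized and deposited log2 ratios (Cy5 over Cy3) made with R and Bioconductor, per the labels. The method of normalization and of background correction is not given in the sources used here, and values were taken as deposited. Of 16361 probes 13768 had 1 gene symbol in the platform annotation, 13 had several and 2580 were not listed.

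Ratios of probes that share a single symbol were averaged, which among members joined the pairs of Sdha and Uqcrq. The 15079 features measured on 3 or more arrays of each time were fitted with limma 3.58.1 in R 4.3.3 as a mean per time, with 6 residual and 3.73 prior degrees of freedom. Each mean was tested against 0 and the 6 h mean against the 1 h mean. Tests were two-sided, with p-values adjusted over all features (Benjamini-Hochberg, threshold 0.05), and errors are limma's standard errors. The fit was tested on simulated data. The number of arrays limits the precision, and no batch is labelled.

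Replicates were numbered in accession order. No test over a list was made. Named were, in complexes I, III, IV and V and for cytochrome c, the 2 members with the smallest p at each time; the 5 with the smallest p for the difference; complex II; members below vehicle; tissue isoform pairs; and the 2 smallest p of each further list with the control genes. The members and lists were chosen with earlier results of these data known. Alternatives were other scalings, array weights, single probes, a stricter filter, robust moderation, each time alone and leaving out arrays. Figures were drawn with matplotlib 3.10.9.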

Additional observations from a re-analysis of the deposited data

Results flagged for a closer look

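Over the 72 members and the medians of the 5 complexes at both times there were 154 groups of 4 arrays. In 18 of them an array lay far from the other 3 (Dixon's ratio past its critical value). For a single group of normally spread values that happens about 1 in 20 times. The groups share the same 8 arrays and the complex medians are made from the members. They are therefore not independent, and the count was not tested against that rate. Most of these were on replicate 4 of 1 h, which had the widest spread of all 8 arrays, with an SD of 0.576 over all features. In complex V, that array had log2 ratios of 1.46 for Atp5g1 (0.42 to 0.54 on the others), 1.33 for Atp5md (0.43 to 0.47) and 0.93 for Atp5l (0.16 to 0.26). In complex IV it had 1.11 for Cox6b1 (0.16 to 0.26), 1.12 for Cox6c (-0.0078 to 0.12), 1.10 for Cox7c (0.11 to 0.24), 0.95 for Cox8a (0.43 to 0.50) and 0.32 for Cox8b (-0.26 to -0.25), and the complex IV median was 0.50 (0.16 to 0.18). In complex I it had 1.15 for Ndufa13 (0.16 to 0.29) and 1.38 for Ndufa4 (0.16 to 0.21). On replicate 2 of 1 h, Ndufb10 had 2.61, against -0.19 to 0.19 on the others.

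At 6 h, replicate 4 had -0.22 for Atp5j2 (-0.01 to 0.0056 on the others), 0.59 for Ndufb8 (0.40 to 0.42) and 0.46 for Uqcrh (-0.13 to -0.05). Replicate 2 of 6 h had 1.77 for Ndufaf4 (0.21 to 0.47) and 0.34 for Ndufa1, which was 0.32 on each of the others. Replicate 1 of 6 h had 0.36 for the core subunit Ndufs1 (0.05 to 0.09). Cox6c, Cox7c, Ndufa4, Ndufs1 and Uqcrh are named here for these values, after they were seen.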

How the results depend on the processing

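The 6 h count of members called, 9 as reported, was 27 (22 above, 5 below) with each array divided by its median absolute deviation, 26 (22 and 4) with quantile normalization and 22 (19 and 3) with array weights, while 33.3%, 32.2% and 26.8% of all features passed. With a single 6 h array left out it was 4 to 7, beside 7.28% to 11.5% of all features. The 1 h count of 34 was 9 without replicates 3 and 4 of 1 h (10.5% of all features) and 27 to 30 with a single 1 h array left out (28.7% to 34.5%), and it stayed within 1.5 times of 34 in the other fits. No member was called for 6 h minus 1 h under any alternative. The complex V median at 6 h was 0.32 with arrays scaled by their deviation and 0.25 to 0.30 with a single array left out, and at 1 h it was 0.26 to 0.44. The complex IV median at 1 h was 0.15 to 0.44 with a single array left out, above that of complex V without replicate 1, and 0.09 to 0.15 at 6 h. For complex I the ranges were 0.11 to 0.18 at 1 h and 0.11 to 0.16 at 6 h, for complex II 0.02 to 0.09 and -0.09 to -0.05, and for complex III -0.02 to 0.09 and -0.10 to 0.0025. The cause of these changes was not tested. Among single values of named genes under an alternative, 1446 kept their sign and side of the threshold, 34 changed sign with no call in either fit, 58 lost the call, 25 gained one and none changed sign with a call. No paired analysis was possible because replicate numbers follow accession order and do not tie a 1 h array to a 6 h array. Signal over background, which limits weak spots, is unknown.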
